A study of Mus musculus with 15 samples.

Results

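The genes described here are 8 markers of cholangiocytes, the epithelial cells that line the bile ducts, and of the ductular reaction: Krt7, Krt19, Epcam, Sox9, Spp1, Cldn7, Cftr and Cd24a. They were chosen by name, and all 8 were found among the 23509 gene symbols shared by the expression tables. Bulk RNA-seq was made from whole liver of 15 male mice, and each value is an FPKM, fragments per unit of gene length, scaled to the size of the library. Because FPKM is scaled by gene length, levels can be set side by side between genes. The study set mice lacking aldehyde dehydrogenase 2, the mitochondrial enzyme that clears the acetaldehyde made from ethanol, against wild type (WT) under a fibrosis protocol.

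The ethanol groups held 4 Aldh2-/- and 5 WT livers, and the pair-fed groups 3 livers of each genotype. WT mice were C57BL/6, and Aldh2-/- mice were a germline knockout line from the Shanghai Model Organisms Center, given as the same strain. Mice were 8 to 10 weeks old by the labels. By the sample annotation every group, controls included, also received the liver toxin carbon tetrachloride (CCl4) in olive oil into the peritoneum, 2 times per week over 8 weeks, with tissue taken 24 h after the final dose. The titles name CCl4 for the ethanol groups alone. No liver without CCl4 by that annotation was analysed here, so none of the levels below is a level of an untreated liver.

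Cholangiocytes form a small share of liver cells and carry keratins and junction proteins that hepatocytes lack or hold at low levels. In the ductular reaction, small duct-like cells that carry these markers accumulate at the edge of the portal tracts of injured livers, together with matrix and inflammatory cells. In whole tissue, more cells of a type and more RNA per cell cannot be told apart.

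The libraries were of like depth, 90.0% to 111.0% of their mean as read from the smallest steps of low genes, and Aldh2 separated the genotypes. Aldh2 averaged 10.4 ± 1.12 (SD, n = 4) FPKM in ethanol-fed Aldh2-/- and 634 ± 60.7 (SD, n = 5) in ethanol-fed WT livers, and 6.75 ± 0.171 against 290.0 ± 16.9 (SD, n = 3 each) under pair-feeding. The share of summed FPKM from mitochondrially encoded genes ran from 15.2% to 24.2% for WT and from 6.90% to 10.8% for Aldh2-/- under pair-feeding. Under ethanol it ran from 6.68% to 13.6% for WT, with WT 5 highest, and from 7.83% to 18.2% for Aldh2-/-, with Aldh2-/- 90 highest. Ethanol-fed WT 5 held the highest value of its group for 7 of the 8 duct markers, all but Sox9. Pair-fed WT 19 was likewise the highest of its group for 6 of the 8. Results for the duct markers under ethanol are given with and without ethanol-fed WT 5. Leaving out the highest WT value widens a higher Aldh2-/- mean by construction. The results without WT 5 therefore show how far this library weighs and add no support for a difference. Differences were tested with limma on log2(FPKM + 1), and a gene was called when its Benjamini-Hochberg adjusted p was under 0.05. These p-values measure the spread between these libraries.

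Under ethanol, 4 of the 7 duct markers high enough to be tested were higher in Aldh2-/- than in WT livers: Spp1, Cd24a, Krt7 and Epcam, by 1.84-fold to 2.56-fold. Krt19 and Cldn7 had higher means in Aldh2-/- livers that did not pass the test, and Sox9 had a lower mean that did not pass it either. None was called lower. Of all 11013 genes tested in this comparison 21.5% were called higher and 15.7% lower. The median log2 change of the 7 markers was 0.80, and that of all genes tested 0.04. Cftr was too low for the fit.

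**Figure D1:**
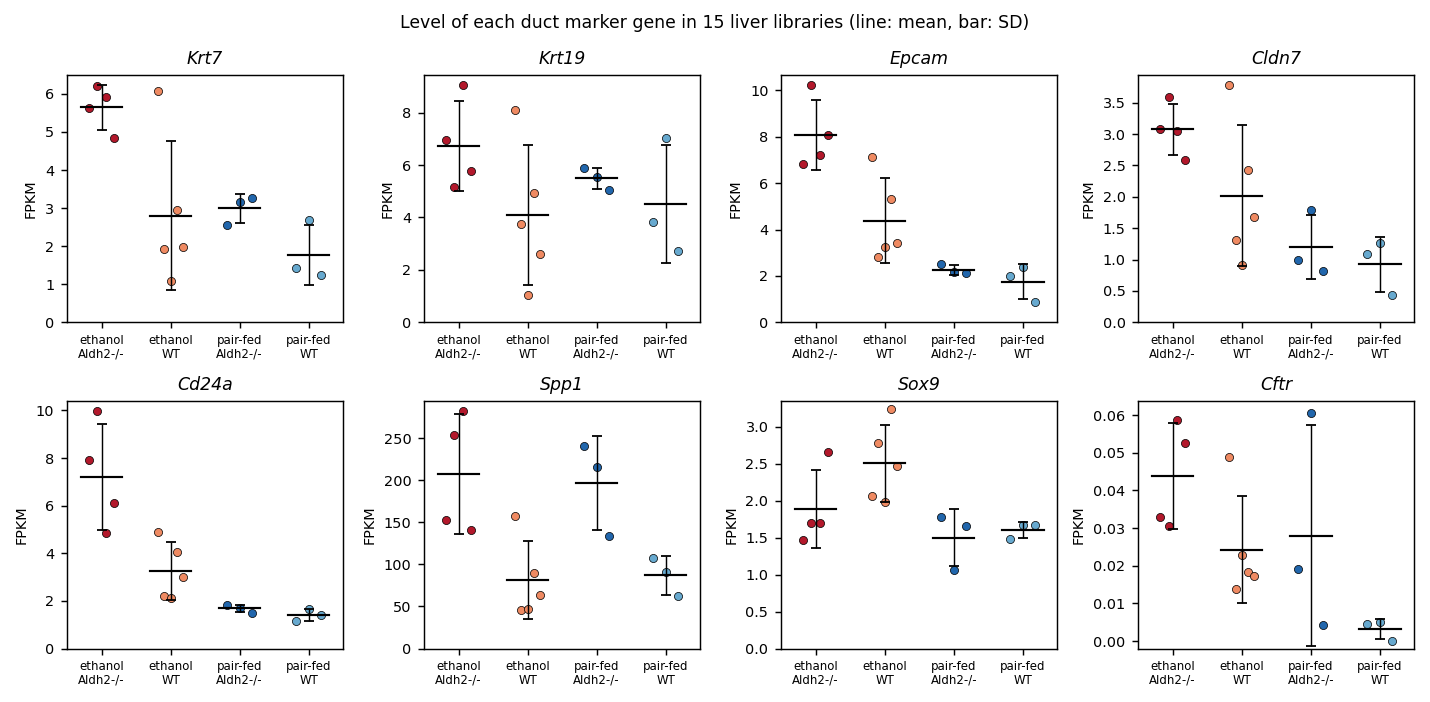
FPKM of the 8 duct markers (vertical axes, linear, each with its own scale) in the 15 libraries by group. Points are libraries, horizontal lines are group means and bars are SD. In the ethanol WT group 1 point, WT 5, is the highest of the 5 for every marker but Sox9, and the pair-fed groups lie low for Epcam and Cd24a.

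The keratins Krt7 and Krt19 build the intermediate filaments of duct epithelium and are the classic stains for bile ducts. Krt7 (chromosome 15, 101411043-101430313, plus strand, GRCm38) was at 5.63, 6.21, 5.92 and 4.84 FPKM in ethanol-fed Aldh2-/- livers 86, 89, 90 and 96. In ethanol-fed WT livers 5, 6, 7, 11 and 12 it was at 6.09, 1.93, 1.09, 2.95 and 1.97 FPKM. The groups overlapped only through WT 5, since the other WT values all lay under 3 FPKM and all Aldh2-/- values above 4. Means were 5.65 ± 0.589 (SD, n = 4) against 2.80 ± 1.95 (SD, n = 5), a 2.02-fold difference and a log2 change of 0.93 ± 0.28 (SE, limma adjusted p = 0.0247). This call was lost in 7 of 21 alternatives, with adjusted p up to 0.0669. They included leaving out Aldh2-/- 86, 89 or 90 or WT 6 or 12, which gave adjusted p of 0.0561 to 0.0579. Without WT 5 the WT mean was 1.98 ± 0.761 (SD, n = 4) and the log2 change 1.19 (limma adjusted p = 0.000684).

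Krt19 (chromosome 11, 100140810-100148665, minus strand) was at 6.96, 5.15, 9.06 and 5.77 FPKM in ethanol-fed Aldh2-/- livers 86, 89, 90 and 96. WT livers 5, 6, 7, 11 and 12 had 8.10, 3.75, 1.06, 4.93 and 2.61 FPKM. WT 7 was the lowest of all 15 libraries and WT 5 the second highest after Aldh2-/- 90. The means of 6.73 ± 1.72 (SD, n = 4) and 4.09 ± 2.66 (SD, n = 5) did not differ beyond this spread, with a log2 change of 0.75 ± 0.35 (SE, limma adjusted p = 0.119). Without WT 5 the WT mean was 3.08 ± 1.65 (SD, n = 4), the ranges no longer overlapped and Krt19 was called (log2 change 1.00, limma adjusted p = 0.0212). With Aldh2-/- 90 left out as well it was not called (log2 change 0.86, limma adjusted p = 0.0574). Krt19 was called in only 2 of 21 alternatives, with limma adjusted p up to 0.259.

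Both keratins are also made by the mesothelium, the cell layer that covers the liver surface, and markers of that layer differed between libraries. Msln, which encodes mesothelin, ran from 0.0793 FPKM in ethanol-fed WT 7 to 7.47 in WT 5, the libraries with the lowest and highest Krt19 of their group. In the pair-fed WT group Msln was also highest, at 8.84 FPKM, in WT 19, which had the highest Krt19 there. In pair-fed Aldh2-/- livers the order was the opposite: liver 9 had the highest Msln, 8.58 FPKM against 4.65 and 4.24, and the lowest Krt19. Over the 15 libraries, after subtracting group means, log2(FPKM + 1) of Msln had a Pearson r of 0.864 with Krt19 and 0.794 with Krt7. For Epcam the same r was 0.364, for Cd24a 0.325 and for Cldn7 0.516. Summed over the 9 mesothelial markers other than keratins, levels were 5.89 to 11.1 FPKM in ethanol-fed Aldh2-/- and 0.708 to 19.2 in ethanol-fed WT livers. In the pair-fed groups the sums were 9.80 to 22.5 FPKM in Aldh2-/- and 3.07 to 18.2 in WT livers. The part of this layer in the keratin differences was not tested.

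Epcam, Cldn7 and Cd24a encode proteins of the cell surface. Epcam (chromosome 17, 87635979-87651129, plus strand) is an epithelial adhesion molecule that marks bile duct cells and small ductular cells and is absent from most adult hepatocytes. It was at 6.82, 10.2, 7.21 and 8.09 FPKM in ethanol-fed Aldh2-/- livers 86, 89, 90 and 96, and at 7.14, 2.81, 3.23, 5.33 and 3.42 in WT livers 5, 6, 7, 11 and 12. Here too WT 5 alone reached into the Aldh2-/- range. The means, 8.08 ± 1.52 (SD, n = 4) and 4.39 ± 1.82 (SD, n = 5), differed 1.84-fold with a log2 change of 0.80 ± 0.22 (SE, limma adjusted p = 0.0150). Without WT 5 the log2 change was 0.96 (limma adjusted p = 0.00185). Epcam was called in 20 of 21 alternatives.

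Cd24a (chromosome 10, 43578284-43584265, plus strand) encodes a small glycoprotein anchored in the membrane, found on duct epithelium and also on immature blood cells and neutrophils. Ethanol-fed Aldh2-/- livers 86, 89, 90 and 96 had 7.92, 9.96, 4.87 and 6.10 FPKM. WT livers 5, 6, 7, 11 and 12 had 4.895, 2.19, 2.11, 4.07 and 2.99 FPKM. WT 5 and Aldh2-/- 90 were nearly level, and every other Aldh2-/- value lay above every WT value. The difference of means was 2.22-fold, 7.21 ± 2.22 (SD, n = 4) against 3.25 ± 1.21 (SD, n = 5), with a log2 change of 0.96 ± 0.23 (SE, limma adjusted p = 0.00830). Cd24a kept its call in all 21 alternatives, and without WT 5 its log2 change was 1.09 (limma adjusted p = 0.00303). Neutrophil markers moved with this difference: 6 of the 6 tested were higher in Aldh2-/- livers, and their sum over 14 genes was 40.5 to 114 FPKM against 6.43 to 37.6 in WT. Erythroid markers were higher in 6 of 8 tested, with a sum over 12 genes of 780 to 2400 FPKM against 198 to 626 in WT. The part of these cells in the Cd24a difference was not tested.

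Cldn7 (chromosome 11, 69964779-69967885, plus strand) encodes a claudin of epithelial junctions that binds EpCAM. It was at 3.08, 3.59, 3.04 and 2.59 FPKM in Aldh2-/- livers 86, 89, 90 and 96 under ethanol, and at 3.78, 1.31, 0.911, 2.42 and 1.68 in WT livers 5, 6, 7, 11 and 12. WT 5 was the highest of all 9 libraries, and the other WT livers lay below every Aldh2-/- liver. With WT 5 the log2 change was 0.50 ± 0.23 (SE, limma adjusted p = 0.105), and without it 0.69 (limma adjusted p = 0.00856). Cldn7 was called in only 3 of 21 alternatives, with limma adjusted p up to 0.209.

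Spp1 (chromosome 5, 104435118-104441050, plus strand) encodes osteopontin, a secreted phosphoprotein that duct cells make and that binds integrins and CD44. It was by far the most abundant of the 8 and had the largest difference. Ethanol-fed Aldh2-/- livers 86, 89, 90 and 96 had 152.6, 253.5, 281.8 and 141.2 FPKM. WT livers 5, 6, 7, 11 and 12 had 157.9, 46.3, 47.5, 89.8 and 63.7 FPKM. WT 5 lay between the Aldh2-/- values, and the other 4 WT livers were below all of them. The means were 207 ± 70.8 (SD, n = 4) and 81.1 ± 46.4 (SD, n = 5), a 2.56-fold difference with a log2 change of 1.44 ± 0.36 (SE, limma adjusted p = 0.0101). The call held in all 21 alternatives. Without WT 5 the log2 change was 1.72 (limma adjusted p = 0.00111).

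Macrophages, stellate cells and other cells also make osteopontin, so their markers are given beside it. Under ethanol 11 of 12 tested macrophage markers and 10 of 10 markers of scar-associated macrophages were higher in Aldh2-/- livers, Gpnmb among them at 63.9 ± 22.0 (SD, n = 4) against 7.74 ± 2.41 FPKM (SD, n = 5; log2 change 2.87, limma adjusted p = 0.000115). The summed level of the 14 macrophage markers was 648 to 1400 FPKM in Aldh2-/- and 280 to 344 in WT livers, with no overlap. WT 5 held 344 FPKM, the highest of the WT livers, and its Spp1 was in the Aldh2-/- range. The 9 scar-associated macrophage markers other than Cd9 summed to 616 to 1060 FPKM in Aldh2-/- and 341 to 458 in WT livers. Stellate and myofibroblast markers summed to 263 to 492 FPKM in Aldh2-/- and to 130 to 276 in WT livers, with WT 5 highest of the WT group. After subtracting group means, Spp1 had a Pearson r of 0.346 with the macrophage sum and 0.583 with the scar-associated sum over the 15 libraries. With the stellate and neutrophil marker sums r was 0.682 and 0.774. What part of the Spp1 difference came from any of these cells was not tested.

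Sox9 (chromosome 11, 112782224-112787760, plus strand) encodes the transcription factor that marks duct cells from development on and that hepatocytes near the portal tract can also carry. It did not follow the other markers. It was at 1.47, 1.70, 1.70 and 2.66 FPKM in ethanol-fed Aldh2-/- livers 86, 89, 90 and 96 and at 2.06, 2.78, 1.98, 3.24 and 2.47 in WT livers 5, 6, 7, 11 and 12. WT 5 was among the lower WT livers here. The Aldh2-/- mean of 1.88 ± 0.529 (SD, n = 4) lay below the WT mean of 2.50 ± 0.523 (SD, n = 5), with a log2 change of -0.29 ± 0.14 (SE, limma adjusted p = 0.133). Without WT 5 the log2 change was -0.33 (limma adjusted p = 0.0935). Without Aldh2-/- 96 it was -0.41 and Sox9 was called lower (limma adjusted p = 0.0282).

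Cftr (chromosome 6, 18170687-18322768, plus strand), the chloride channel by which duct cells secrete fluid, was close to undetected. Its FPKM values correspond to whole fragments, and all 15 libraries together held 86 of them. Ethanol-fed Aldh2-/- livers 86, 89, 90 and 96 had 8, 7, 12 and 11 fragments and WT livers 5, 6, 7, 11 and 12 had 12, 3, 5, 4 and 4. Pair-fed Aldh2-/- livers 1, 2 and 9 had 4, 13 and 1 fragments and pair-fed WT livers 18, 19 and 20 had 1, 1 and 0, where 0 allows up to 3 fragments, or 0.0141 FPKM. For 12 fragments the exact 95% Poisson interval is 6.20 to 21.0 and for 4 it is 1.09 to 10.2, which covers counting error only. Exact two-sided permutation tests of the genotype difference, over every split of the libraries, gave p = 0.103 under ethanol (n = 4 and 5) and p = 0.3 under pair-feeding (n = 3 and 3, where p = 0.1 is the smallest possible). Pancreatic ducts also carry Cftr. Pancreas and gallbladder markers summed over 11 genes to 35.0, 41.0 and 11.1 FPKM in pair-fed Aldh2-/- livers 1, 2 and 9 and to 7.90 to 11.3 in pair-fed WT livers. Their part in the Cftr counts was not tested. Without WT 5, Cftr did not overlap between the ethanol groups, with means of 0.0437 ± 0.0141 and 0.0181 ± 0.00375 FPKM (SD, n = 4 each). That gap lay between 7 fragments in Aldh2-/- 89 and 5 in WT 7. Their 95% Poisson intervals, 2.81 to 14.4 and 1.62 to 11.7, largely overlap.

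The promoters of Krt7, Epcam, Cldn7 and Spp1 are shown because these 4 genes deviated together between libraries of 1 group, as given below. Each sequence is the 250 bases just upstream of a start of the gene in RefSeq on GRCm38.p6, the start nearest to the GENCODE gene's 5′ end where the table lists 2 (Spp1 and Cldn7), 5′ to 3′ on the plus strand, which is the gene's own strand. Capitals mark matches, on either strand, to motifs searched in all 32851 promoters of that table. Krt19, Sox9 and Cd24a were not matched in it. The only RefSeq start listed for Krt7 lies inside the longer GENCODE gene given above.
Krt7, chr15:101412153-101412402: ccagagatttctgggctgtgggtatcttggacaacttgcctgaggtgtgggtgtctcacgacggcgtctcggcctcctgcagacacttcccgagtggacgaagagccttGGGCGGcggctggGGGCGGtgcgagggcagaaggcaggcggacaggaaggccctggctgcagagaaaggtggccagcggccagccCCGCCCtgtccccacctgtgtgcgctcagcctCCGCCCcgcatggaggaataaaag
Epcam, chr17:87635729-87635978: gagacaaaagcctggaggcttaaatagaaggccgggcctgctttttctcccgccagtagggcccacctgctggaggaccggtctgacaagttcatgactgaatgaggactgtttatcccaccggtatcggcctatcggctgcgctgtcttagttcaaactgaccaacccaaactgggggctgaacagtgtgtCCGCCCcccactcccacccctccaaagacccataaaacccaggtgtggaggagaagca
Cldn7, chr11:69964529-69964778: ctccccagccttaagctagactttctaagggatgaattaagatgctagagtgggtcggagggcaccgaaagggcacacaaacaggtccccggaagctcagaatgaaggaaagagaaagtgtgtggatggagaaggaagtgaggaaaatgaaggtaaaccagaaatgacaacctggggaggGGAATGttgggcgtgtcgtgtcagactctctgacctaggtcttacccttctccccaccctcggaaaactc
Spp1, chr5:104434861-104435110: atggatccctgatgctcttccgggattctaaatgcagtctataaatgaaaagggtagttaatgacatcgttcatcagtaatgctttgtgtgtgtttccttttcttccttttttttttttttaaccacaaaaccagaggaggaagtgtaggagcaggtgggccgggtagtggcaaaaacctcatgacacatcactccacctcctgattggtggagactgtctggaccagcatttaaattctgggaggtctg
In Krt7 the capitals are 4 matches to the GC box GGGCGG, in Epcam 1 match to the same box and in Cldn7 1 match to the TEAD motif GGAATG, while the Spp1 window held none of the motifs searched. Of all promoters 32.7% held the GC box and 12.6% the TEAD motif. No motif was shared by all 4. None of the 4 windows held the letters searched for SOX factors (AACAAT, in 9.42% of all promoters), RBPJ (TGGGAA, 21.6%), AP-1 (TGANTCA, 6.75%) or grainyhead factors (AACCNGTT, 1.79%). GC content was 66.0% for Krt7, 56.4% for Epcam, 51.2% for Cldn7 and 43.6% for Spp1, against a median of 52.4% over all promoters. A match is a run of letters and not a measured binding site.

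Under pair-feeding 1 of the 7 tested markers, Spp1, was higher in Aldh2-/- livers and none was lower. Of 11138 genes tested 26.0% were called higher and 2.41% lower, and the median log2 change of all genes was itself 0.26. Spp1 was at 240.6, 215.3 and 133.8 FPKM in pair-fed Aldh2-/- livers 1, 2 and 9 and at 108.1, 90.4 and 61.9 in WT livers 18, 19 and 20. The 2 groups did not overlap. The means of 197 ± 55.8 and 86.8 ± 23.3 (SD, n = 3 each) differed 2.26-fold with a log2 change of 1.16 ± 0.26 (SE, limma adjusted p = 0.0188), or 0.91 above the median of all genes. The call was lost after median-ratio rescaling (log2 change 0.82, adjusted p = 0.0999), after quantile normalization, with no filter, and without Aldh2-/- 1 (adjusted p = 0.0755) or WT 20 (adjusted p = 0.0684).

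Of the other 6 markers, 4 lay within 0.1 of that median shift, while Krt7 lay 0.30 above it and Sox9 at -0.33 relative to it. Krt7 was at 2.55, 3.15 and 3.27 FPKM in pair-fed Aldh2-/- livers 1, 2 and 9 and at 1.41, 2.68 and 1.24 in WT livers 18, 19 and 20, with a log2 change of 0.56 ± 0.19 (SE, limma adjusted p = 0.0622). Without WT 19, the highest WT library, Krt7 was called (log2 change 0.78, limma adjusted p = 0.0142) and so was Krt19 (0.62, limma adjusted p = 0.0306). Krt7 was called in only 3 of 18 alternatives and Krt19 in 1 of 18. With all libraries Krt19 had a log2 change of 0.31, Epcam 0.29, Cldn7 0.19 and Cd24a 0.16, with limma adjusted p of 0.304 to 0.503. Relative to the median of all genes these 4 were at 0.05, 0.03, -0.06 and -0.09. Cd24a was at 1.51 to 1.83 FPKM in Aldh2-/- and 1.14 to 1.65 in WT livers, and Sox9 at 1.06 to 1.78 and 1.48 to 1.67. Both pairs of ranges overlapped.

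**Figure D2:**
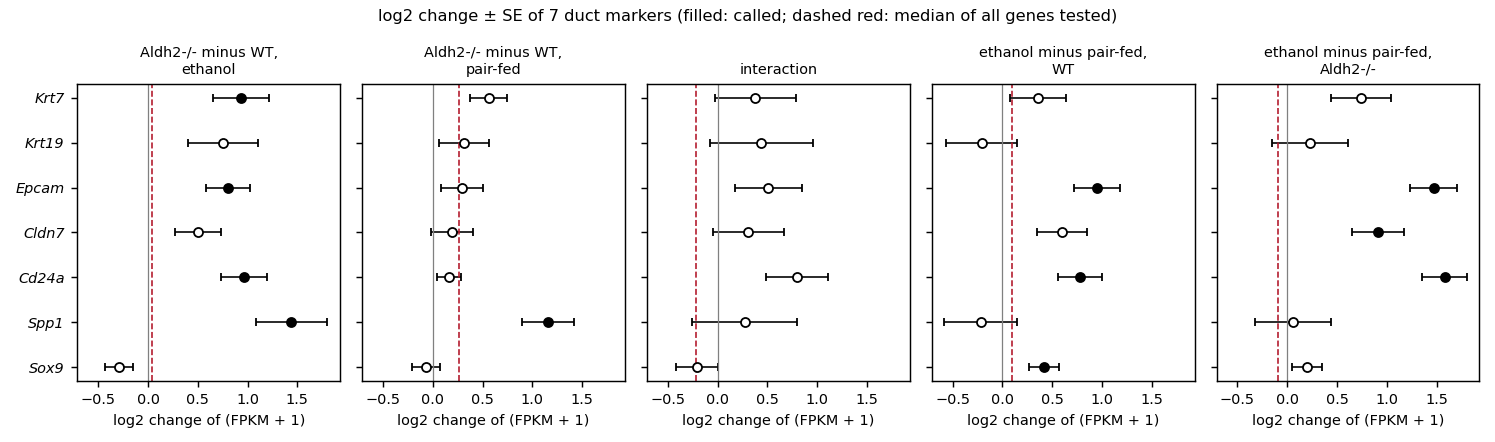
log2 change of (FPKM + 1) with its SE for the 7 tested duct markers in 5 comparisons. Filled points were called and the dashed line is the median of all genes tested. Spp1 is filled in both genotype comparisons, and Epcam and Cd24a in both diet comparisons and in the ethanol genotype comparison.

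Whether the genotype difference itself changed with diet was tested as an interaction. No marker passed in limma, where 8.06% of 11157 genes were called higher and 29.0% lower, and 1 of 7 had an unadjusted p under 0.05. That gene was Cd24a, whose genotype difference was larger under ethanol by 0.80 ± 0.31 (SE) on the log2 scale (limma adjusted p = 0.0565). Cd24a was called in 8 of 26 alternatives, among them without ethanol WT 5 (0.93, adjusted p = 0.0183), without WT 11 (0.87, adjusted p = 0.0480) and without Aldh2-/- 90 (0.94, adjusted p = 0.0256). For Spp1 the interaction was 0.27 ± 0.53 (SE), for Epcam 0.51 ± 0.34, for Krt19 0.44 ± 0.52, for Krt7 0.38 ± 0.41, for Cldn7 0.31 ± 0.36 and for Sox9 -0.21 ± 0.21. These errors are as large as most of the values, so the calls made under ethanol alone are not shown to be particular to ethanol.

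Ethanol and pair-fed livers were deposited in separate tables, so a difference between diets and a difference between tables cannot be told apart, nor can any difference in CCl4 if the titles are right. Aldh2 itself was 2.19-fold higher in ethanol-fed than in pair-fed WT livers, and the median log2 change of all genes between them was 0.10. In WT, 3 of 7 markers were higher in the ethanol table: Epcam, Cd24a and Sox9. Of 11157 genes 29.2% were called higher and 11.9% lower there. Epcam was at 1.99, 2.37 and 0.893 FPKM in pair-fed WT livers 18, 19 and 20, below every ethanol-fed WT liver, and 2.51-fold lower on average (log2 change 0.95 ± 0.23, SE, limma adjusted p = 0.00502). Cd24a was 2.31-fold higher in the ethanol table, also without overlap (log2 change 0.78 ± 0.22, SE, limma adjusted p = 0.00981).

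Sox9 was 1.56-fold higher in ethanol-fed than in pair-fed WT livers, 2.50 ± 0.523 (SD, n = 5) against 1.61 ± 0.107 FPKM (SD, n = 3; log2 change 0.42 ± 0.15, SE, limma adjusted p = 0.0334). That call was lost in 10 of 26 alternatives, median-ratio rescaling included (0.31, adjusted p = 0.110). Leaving out ethanol WT 6, 11 or 12 or any of the pair-fed WT livers ended it as well, with adjusted p of 0.0545 to 0.101. Krt19 and Spp1 had log2 changes of -0.21 ± 0.36 and -0.22 ± 0.37 (SE) between the same groups and were not called.

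In Aldh2-/- livers, Epcam, Cd24a and Cldn7 were higher in the ethanol table, 3 of 7 markers, where 17.6% of all genes were called higher and 29.3% lower. Cd24a differed 4.29-fold (log2 change 1.58 ± 0.23, SE, limma adjusted p = 5.62e-05), Epcam 3.57-fold (1.47 ± 0.24, limma adjusted p = 0.000198) and Cldn7 2.57-fold (0.91 ± 0.26, limma adjusted p = 0.00895), each without overlap of the libraries. These 3 calls held in every alternative run. Krt7 had a log2 change of 0.74 ± 0.30 (SE, limma adjusted p = 0.0524) and passed in 11 of 27 alternatives. Krt19 at 0.23 ± 0.38, Sox9 at 0.20 ± 0.15 and Spp1 at 0.06 ± 0.38 (SE) were not called in these or any of their alternatives.

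The surface genes thus changed their level relative to Krt19 from table to table. Within each library the ratio of Epcam to Krt19 was 0.796 to 1.99 in ethanol-fed Aldh2-/- and 0.751 to 3.05 in ethanol-fed WT livers. In pair-fed livers it was 0.393 to 0.428 in Aldh2-/- and 0.330 to 0.519 in WT. The ethanol and pair-fed ranges did not overlap, whereas the genotypes overlapped within each diet. Cldn7 to Krt19 gave 0.336 to 0.862 in ethanol-fed and 0.159 to 0.322 in pair-fed livers of either genotype, and Cd24a to Krt19 0.538 to 2.00 and 0.235 to 0.527. Krt7 to Krt19 ran from 0.514 to 1.21 in ethanol-fed and from 0.369 to 0.646 in pair-fed livers, with overlap. These ratios were computed after the values were seen and are descriptions without a test.

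**Figure D3:**
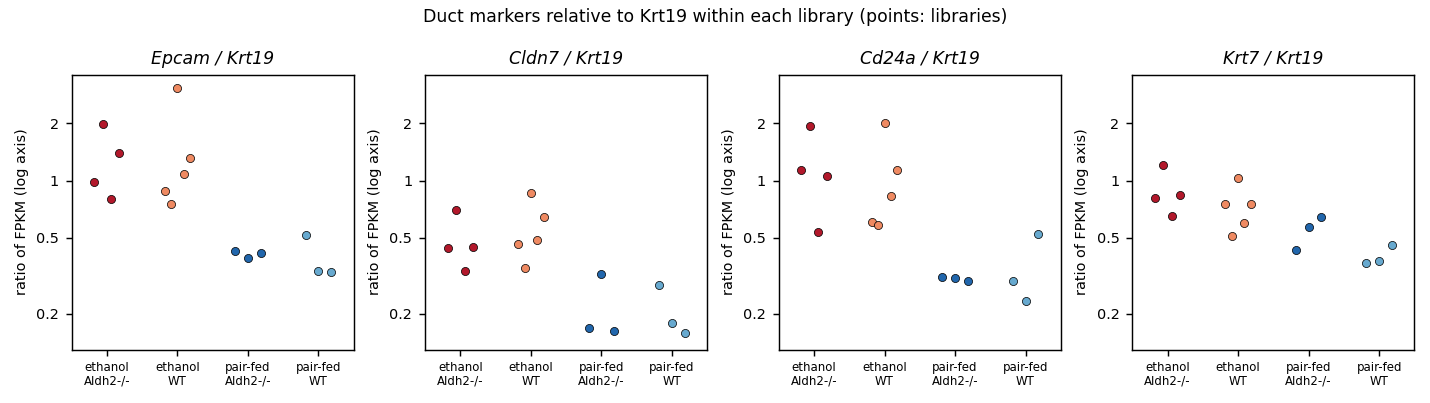
Ratio of the FPKM of Epcam, Cldn7, Cd24a and Krt7 to that of Krt19 in each library (log axis), by group. For Epcam, Cldn7 and Cd24a all 9 ethanol points lie above all 6 pair-fed points, and the 2 genotypes of a diet overlap.

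Epcam, Cldn7 and Cd24a shared 1 order of group means: pair-fed WT, pair-fed Aldh2-/-, ethanol-fed WT, ethanol-fed Aldh2-/-. For all 3 the 2 pair-fed groups overlapped, and so did the 2 ethanol groups. Spp1 and Krt19 had ethanol-fed WT lowest, followed by pair-fed WT, pair-fed Aldh2-/- and ethanol-fed Aldh2-/-. Sox9 alone had its highest mean in ethanol-fed WT livers. In every group Spp1 was the most abundant of the 8 per length and Cftr the least, while Krt7, Krt19, Epcam, Cldn7, Cd24a and Sox9 had group means between 0.926 and 8.08 FPKM.

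Between libraries of 1 group the markers other than Sox9 deviated together. After subtracting group means of log2(FPKM + 1), the 15 pairs among Krt7, Krt19, Epcam, Cldn7, Cd24a and Spp1 had Pearson r of 0.453 to 0.884 over the 15 libraries, with a median of 0.725. The closest pair was Krt7 with Krt19. The 6 pairs with Sox9 had r of -0.238 to 0.0908. These are descriptions. The points share library composition, and WT 5 and WT 7, at the top and bottom of their group for most of the 6, weigh in all of them.

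**Figure D4:**
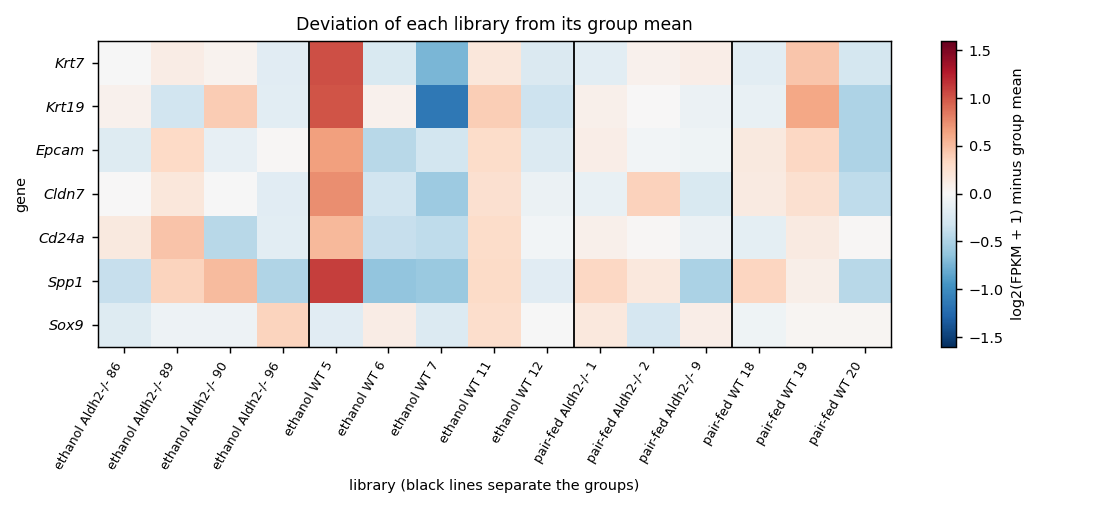
log2(FPKM + 1) of 7 duct markers minus the mean of the library's own group (colour), for 15 libraries in 4 groups. WT 5 of the ethanol group is high for the 6 markers other than Sox9 and WT 7 is low for them, while the Sox9 row stays pale.

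Other genes named for each marker are the 3 with the highest Pearson r of log2(FPKM + 1) over the 15 libraries. For Epcam these were Scara3 (r = 0.970), Tspan8 (0.958) and Cldn4 (0.95), and for Cldn7 Epcam itself (0.929), Scara3 (0.923) and St14 (0.922). Cldn4 and St14 encode an epithelial claudin and the membrane protease matriptase. Cldn4 averaged 2.84 FPKM in Aldh2-/- and 1.26 in WT livers under ethanol, and 0.405 and 0.324 under pair-feeding, the group order of Epcam. Cd24a was followed by Art4 (0.956), Mal (0.955) and Ston1 (0.951). For Krt7 they were Gas6 (0.941), Ptgis (0.940) and Bicc1 (0.938), with r of 0.848, 0.890 and 0.865 after group means were subtracted. Krt19 was followed by Cyp2s1 (0.915), Loxl1 (0.868) and Ngdn (0.857), and Spp1 by Ssbp4 (0.932), Cacnb3 (0.928) and Pdzk1ip1 (0.928). Sox9 had a different company, Gldc (0.899), Pcca (0.896) and Bpnt1 (0.892), of which Gldc and Pcca encode enzymes of glycine and propionate breakdown that hepatocytes carry. Under ethanol Gldc averaged 42.4 FPKM in Aldh2-/- and 85.2 in WT livers, so that, as for Sox9, WT held the higher mean.

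Further genes listed for duct epithelium, some of which hepatocytes also carry, moved in both directions under ethanol. Which cells these changes came from was not tested. The genes named from this and the following lists as higher or lower under ethanol, Yap1 aside, kept those calls without WT 5. For Yap1 that value is not given here. Of 22 tested genes for duct keratins, junctions and surface proteins, 9 were higher and 5 lower in Aldh2-/- livers, against the 21.5% and 15.7% of all genes. Muc1, a mucin of the luminal surface, was higher at 2.14 ± 0.270 (SD, n = 4) against 1.07 ± 0.340 FPKM (SD, n = 5; limma adjusted p = 0.00340). Krt8, a keratin that hepatocytes share with ducts, was lower, 0.701 times the WT mean of 185 ± 26.4 FPKM (SD, n = 5; log2 change -0.51, limma adjusted p = 0.0169). Leaving out Aldh2-/- 86 ended the Krt8 call (adjusted p = 0.0529). Mal2, a protein of apical transport, and Perp, a desmosome protein, were lower as well, by 0.94 and 0.64 on the log2 scale (limma adjusted p = 0.000569 and 0.00244). Sctr, the secretin receptor of large ducts, was at most 0.103 FPKM in the ethanol groups.

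Among 8 tested genes of the duct cilium 3 were higher and 1 lower, with Dcdc2a at 1.10 ± 0.176 against 0.435 ± 0.30 FPKM (limma adjusted p = 0.00975). Leaving out 1 library gave 1 to 6 calls in place of 4: 1 without Aldh2-/- 86 or 89 or WT 6 or 12, and 2 without Aldh2-/- 90 or WT 7 or 11. Of 12 duct transcription factors 4 were higher and 3 lower. Ehf and Elf3, epithelial ETS factors, were higher (log2 changes 0.61 and 0.76, limma adjusted p = 0.00718 and 0.00765). Prox1, a hepatocyte and lymphatic factor, was lower at 5.11 ± 0.478 against 9.74 ± 2.43 FPKM (limma adjusted p = 0.00309). The 7 calls in this list became 4 without Aldh2-/- 86 or without Aldh2-/- 89. Of 14 genes for duct secretion and transport 5 were higher and 2 lower, which became 4 calls in all without Aldh2-/- 86 or WT 6, 7 or 12. Aqp1, a water channel of ducts and vessels, rose from 22.3 ± 4.23 to 44.9 ± 13.8 FPKM in Aldh2-/- livers (limma adjusted p = 0.00733). Nherf1, a scaffold at the apical membrane that binds CFTR, was lower by 1.05 (limma adjusted p = 0.00111).

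Signals that act on ducts were counted from lists in the same way. In the Notch pathway, through which portal cells direct duct fate, 4 of 11 tested genes were higher under ethanol and none lower. They were Notch1, Notch4, Adam10 and Lfng, with log2 changes of 0.41, 0.45, 0.55 and 0.58. The other 7 were not called, Notch2 and Hes1 among them (log2 changes -0.19 and -0.12, limma adjusted p = 0.22 and 0.726). In the YAP and TEAD pathway 6 of 16 were higher and 1 lower. The lower one was Yap1 itself, at 8.4 ± 0.233 against 11.4 ± 1.28 FPKM (limma adjusted p = 0.00871). Tead1 was higher at 2.37 ± 0.202 against 0.942 ± 0.165 FPKM (limma adjusted p = 0.000233), and Gadd45b and Axl by 1.36 and 1.01 on the log2 scale. Of 17 signals and receptors of the ductular reaction 7 were higher and 2 lower. Egfr, a growth factor receptor, was higher at 45.0 ± 17.1 against 10.2 ± 1.44 FPKM (limma adjusted p = 0.000381), as was its ligand Btc at 3.00 ± 0.822 against 0.664 ± 0.210. Met, the receptor for hepatocyte growth factor, was lower at 2.98 ± 0.470 against 6.07 ± 0.413 FPKM (limma adjusted p = 0.000321). Of 8 tested receptors for osteopontin 6 were higher and none lower, with the integrin gene Itgb3 at 4.17 ± 1.35 against 0.793 ± 0.367 FPKM (limma adjusted p = 0.000415) and Cd44 at 3.93 ± 1.19 against 1.71 ± 0.514 (limma adjusted p = 0.00575). Leaving out 1 library gave 4 to 7 calls among these receptors. Siglecg and Selp, whose proteins bind CD24, were too low to be tested. Of the 7 genes listed with them as Cd24a receptors and other Siglecs, 2 were tested, Siglec1 and Siglece, and both were higher. These 2 calls became 0 without Aldh2-/- 89 and 1 without Aldh2-/- 86 or 90 or WT 6, 7 or 11.

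**Figure D5:**
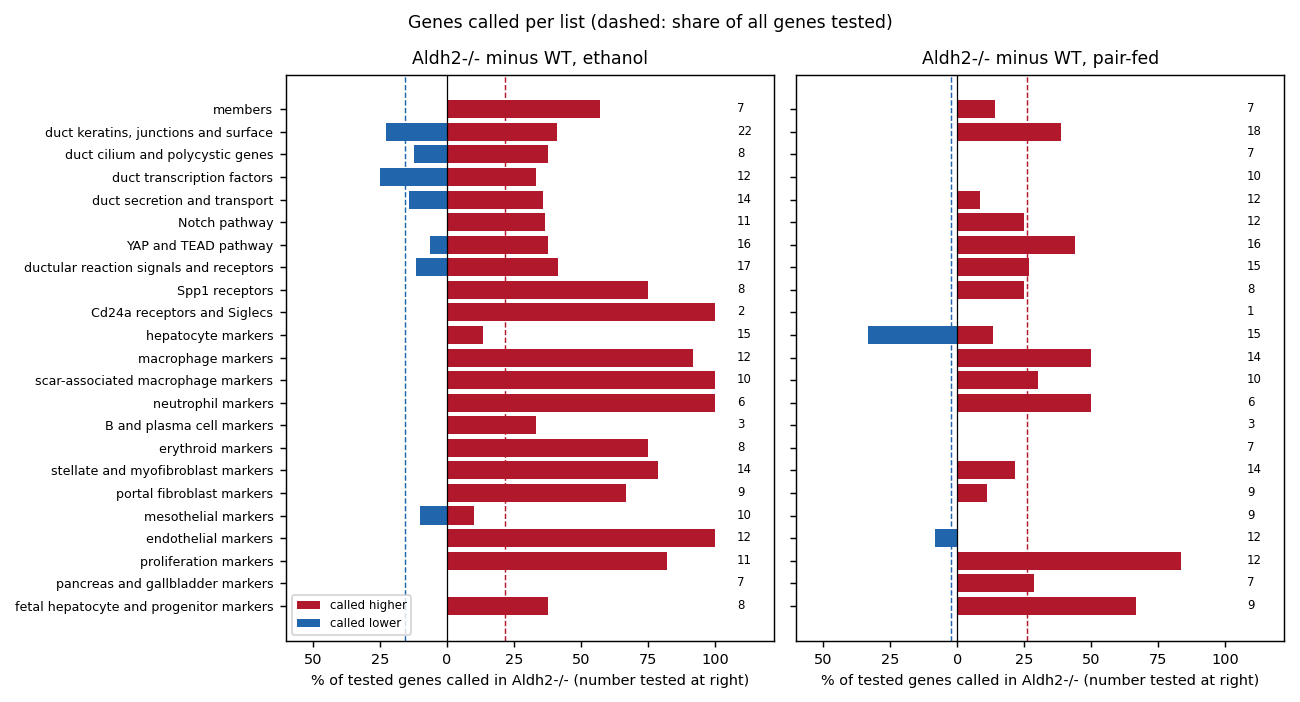
Share of tested genes of each list that were called higher (right) or lower (left) in Aldh2-/- livers under ethanol and under pair-feeding. Numbers at the right are genes tested and dashed lines are the shares over all genes. The endothelial, neutrophil, scar-associated macrophage and Cd24a receptor lists are called higher in full under ethanol, the last with 2 genes tested. The proliferation list reaches 10 of 12 under pair-feeding.

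Markers of the cells that lie around ducts moved with the duct markers under ethanol. Portal fibroblast markers were higher in 6 of 9 tested and stellate and myofibroblast markers in 11 of 14, none lower. Those of the stellate list not called were the myofibroblast genes Acta2 and Tagln and the collagen gene Col3a1. Their log2 changes were 0.10, 0.06 and 0.37 (limma adjusted p = 0.662, 0.78 and 0.248). Thy1, a portal fibroblast surface protein, was at 2.14 ± 0.738 against 0.584 ± 0.221 FPKM (limma adjusted p = 0.00184). The summed level of 12 portal fibroblast genes was 70.5 to 101 FPKM in Aldh2-/- and 30.9 to 66.3 in WT livers, with WT 5 highest and WT 7 lowest of the WT group, as for Krt7 and Cldn7. After subtracting group means, this sum had a Pearson r of 0.887 with Krt7, 0.872 with Epcam, 0.816 with Cldn7, 0.786 with Cd24a, 0.738 with Spp1 and 0.0247 with Sox9 over the 15 libraries. All 12 endothelial markers tested were higher, with Pecam1 at 8.03 ± 2.27 against 3.38 ± 0.911 FPKM (limma adjusted p = 0.00204). Hepatocyte markers were called higher in 2 of 15 and lower in none, and Alb, which encodes albumin, was not called (log2 change -0.38, limma adjusted p = 0.0969). Summed over 15 genes, hepatocyte markers took 75400 to 84600 FPKM in Aldh2-/- and 84600 to 102000 in WT livers. The part of tissue composition in the duct marker differences was not tested.

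Of the remaining lists under ethanol, 9 of 11 proliferation, 6 of 8 erythroid, 3 of 8 fetal and progenitor and 1 of 3 B and plasma cell markers were higher and none lower. Mesothelial markers were higher in 1 of 10 and lower in 1, which were Krt7 and Krt8, keratins that ducts share. Pancreas and gallbladder markers gave no call among 7. Under pair-feeding the duct lists held fewer calls. Duct keratins, junctions and surface proteins had 7 of 18 higher, secretion and transport 1 of 12, and cilium genes and duct transcription factors none of 7 and none of 10, with none lower in any of them. YAP and TEAD genes had 7 of 16 higher, Notch genes 3 of 12, signals and receptors 4 of 15 and osteopontin receptors 2 of 8, which were Itgb1 and Cd44. The Cd44 call was lost without any 1 of the 6 libraries (adjusted p = 0.0505 to 0.17), and the Itgb1 call without Aldh2-/- 1 (0.0816) or WT 20 (0.0698) and with median-ratio rescaling or quantile normalization. Proliferation markers were higher in 10 of 12, macrophage markers in 7 of 14, stellate markers in 3 of 14 and portal fibroblast markers in 1 of 9. Fetal and progenitor markers were higher in 6 of 9, neutrophil markers in 3 of 6, scar-associated macrophage markers in 3 of 10 and pancreas and gallbladder markers in 2 of 7. Hepatocyte markers were higher in 2 of 15 and lower in 5, endothelial markers were lower in 1 of 12, and the mesothelial, erythroid, B cell and Siglec lists had no call. Over all listed genes, 58 of 220 tested were called higher and 6 lower, a share close to the 26.0% and 2.41% of all genes. This fell to 9 and 7 after median-ratio rescaling, to 11 and 1 without pair-fed Aldh2-/- 1 and to 13 and 0 without pair-fed WT 20.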

How the data were processed

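Whole-liver RNA-seq libraries of 15 mice in 4 groups were used, from 1 deposited table for the ethanol groups and 1 for the pair-fed groups. The values are FPKM computed by the authors. fastp, HISAT2 and HTSeq on the mm10 build are named in the submitters' processing notes, and their versions and the gene annotation are not given in the sources used here. Total counts were not used, so the depth was read from the smallest step of low FPKM values, and fragments per gene were recovered where they came out whole within 0.02. How reads of overlapping genes were assigned is not given in the sources used here.

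Genotypes were compared within each table on log2(FPKM + 1) with limma 3.58.1 (R 4.3.3), leaving out genes whose mean over the fitted libraries was under 0.5 FPKM, with two-sided tests and Benjamini-Hochberg adjustment over all genes tested at 0.05. Fold changes on this scale understate changes of low genes. Folds given as such are ratios of mean FPKM. The interaction and the diet comparisons came from 1 fit of all 15 libraries. Cftr was tested by exact permutation. Python 3.11.15, pandas 2.3.3, numpy 2.4.6, scipy 1.17.1 and matplotlib 3.10.9 were used. Positions are from GENCODE vM21 on GRCm38, and promoters from RefSeq on GRCm38.p6, where 5 of the 8 genes matched.

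The 8 genes and the 22 other lists (322 entries, of which 4 are in the tables under another name and 2 were not found) were chosen with earlier results of these data known. The genes named from each list are among up to 4 with the smallest p under ethanol and up to 2 under pair-feeding, with defining markers of other cell types, and the 3 most correlated genes per marker. Yap1, Hes1, Acta2 and Col3a1 were named in addition, with their values known. Mesothelial Msln and the ratios to Krt19 were singled out after values were seen. The values of 1 listed gene are not reported here.

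On simulated data for the same genes, the fit recovered 78%, 55% and 54% of changes of 1 on the log2 scale for the ethanol, pair-fed and interaction comparisons, and 39%, 3% and 6% of changes of 0.5. Of the simulated calls, 4 of 121, 9 of 67 and 4 of 64 were on unchanged genes. Only 200 genes were changed, all with a mean of at least 2 FPKM. The data held far more calls, so recovery there can differ, and recovery of lower genes was not measured. Alternatives were another pseudocount (0.1), the filter removed or raised to 2 FPKM, 3 other scalings (a common sum, median ratios, quantile normalization), quality weights per library, robust variances, another set of groups in the fit, the replicate number as a block, and each library left out. Added after seeing the data were leaving out ethanol WT 5 with ethanol Aldh2-/- 90, the ethanol libraries with the highest mitochondrial share, and removing mitochondrial genes.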

Additional observations from a re-analysis of the deposited data

Results flagged for a closer look

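Of 100 group values of 4 or 5 libraries examined, 12 held a library far from the others of its group. The cutoff gives about 1 in 20 by chance for independent, normally distributed values. These genes were measured in the same ethanol libraries and are not independent, so 12 of 100 cannot be read as an excess. Ethanol-fed WT 5 was the high library for 7 of the 12, of which 1 was a duct marker, Cftr at 0.0489 FPKM. The other 6 were Aqp1 at 29.7 FPKM, Cd44 at 2.60, Cd9 at 89.6, Elf3 at 1.55, Notch4 at 0.948 and Pecam1 at 4.95. Ethanol-fed WT 7 was far above the other WT livers for Lfng, at 1.45 FPKM. Among ethanol-fed Aldh2-/- livers, Aldh2-/- 89 was apart for Krt8 at 163 FPKM and Perp at 55.9, Aldh2-/- 90 for Mki67 at 1.42 and Aldh2-/- 96 for Bicc1 at 2.96.

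In the interaction 29.0% of all 11157 genes tested were called lower and 8.06% higher, with a median log2 change of -0.22. The genotype difference on the log2(FPKM + 1) scale changed with diet in limma for 4 of 14 genes looked at, all called lower. It was lower under ethanol than under pair-feeding by an interaction on the log2 scale of -0.92 for Krt8 (adjusted p = 0.00462), -0.99 for Mki67 (adjusted p = 0.0427), -1.65 for Nherf1 (adjusted p = 0.000278) and -1.13 for Perp (adjusted p = 0.000737). Krt8, Nherf1 and Perp had lower means in Aldh2-/- than in WT livers under ethanol and higher means under pair-feeding. Mki67, a marker of dividing cells, was called higher in Aldh2-/- livers in both. Its ratio of mean FPKM was 4.52 under ethanol (0.893 against 0.197 FPKM) and 4.62 under pair-feeding (8.71 against 1.89). The log2(FPKM + 1) scale understates changes of low genes, so the Mki67 interaction does not show a smaller fold under ethanol. The pair-fed call of Mki67 was lost with no filter (adjusted p = 0.0718), median-ratio rescaling (0.0629), quantile normalization (0.0677), and without Aldh2-/- 1 (0.0675) or WT 20 (0.0684). None of the 7 tested duct markers passed this test.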

How the results depend on the processing

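Of 824 recomputed values of the tested duct markers, 754 kept direction and call, 23 lost a call, 35 gained one and 12 changed sign. Under ethanol 4 markers were called, against 7 with library quality weights and 3 to 6 with 1 library left out. Under pair-feeding 1 was called, against 2 with a common sum or quality weights, 0 with no filter, median-ratio rescaling or quantile normalization and 0 to 3 with 1 library left out. For the interaction 0 were called, against 1 with median-ratio rescaling, quantile normalization, quality weights, mitochondrial genes removed or both high-mitochondrial libraries left out, and 0 to 1 with 1 library left out. The diet comparisons gave 2 to 4 calls in WT and 3 to 4 in Aldh2-/- livers with 1 library left out.

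The changes of sign, none in a called value, were these. Under pair-feeding Cd24a was -0.05 with median-ratio rescaling and -0.06 with quantile normalization, Sox9 ranged from -0.15 to 0.06 (without Aldh2-/- 2) and Cldn7 from -0.01 (without WT 20) to 0.32 with 1 library left out. Between diets in WT, Spp1 was 0.01 with a common sum, and Krt19 ranged from -0.46 to 0.10 with 1 library left out, above 0 without ethanol WT 7 (0.07) or pair-fed WT 19 (0.10). Between diets in Aldh2-/- livers Spp1 was -0.22 with quality weights and -0.11 without both high-mitochondrial libraries, and ranged from -0.20 to 0.22 with 1 library left out, below 0 without ethanol Aldh2-/- 89 (-0.06) or 90 (-0.11) or pair-fed Aldh2-/- 9 (-0.20). The cause of these changes was not tested.

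Over all genes, the pair-fed comparison had 3162 calls, 91.5% of them higher. It had 667 (38.2% higher) with median-ratio rescaling, 652 (46.2%) with quantile normalization, 1103 with no filter, 1861 with mitochondrial genes removed, 4826 with quality weights, 294 without Aldh2-/- 1, 474 without WT 20 and 1925 without Aldh2-/- 2. Under ethanol 57.7% of calls were higher, and 45.3% with quantile normalization. For the interaction 21.7% were higher, 51.7% with median-ratio rescaling and 45.4% with quantile normalization. Between diets 71.1% were higher in WT, against 86.1% with a common sum, 49.9% with median ratios and 53.7% with quantiles. In Aldh2-/- livers 37.6% were higher, against 49.7%, 47.8% and, with mitochondrial genes removed, 50.0%.

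Deviations of libraries with the same replicate number in the sample descriptions had r of -0.087 to 0.246 under ethanol and -0.025 to 0.029 under pair-feeding. Libraries with different numbers had r of -0.517 to 0.404 and -0.205 to 0.229. With so few libraries these values cannot show whether the numbers pair the mice. With the number as a block, Krt7 and Epcam lost their calls under ethanol (limma adjusted p = 0.0511 and 0.0549), which left 2 markers called, and calls over all genes were 3120 in place of 4098. Cftr, at 0 to 13 fragments per library, is limited by depth. The 3 livers per pair-fed group and the spread through ethanol WT 5 limit the other markers.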

Other observations

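Of the genes in the lists, Spink1 and Tff3, listed with fetal and progenitor markers, had the largest log2 changes under ethanol, while 3 of the 8 genes tested in that list were called. Spink1, which encodes a trypsin inhibitor, was at 16.4 ± 5.11 FPKM (SD, n = 4) in Aldh2-/- and 0.478 ± 0.341 (SD, n = 5) in WT livers, a log2 change of 3.54 (limma adjusted p = 2.06e-05). Tff3, a trefoil factor secreted by mucosal and biliary epithelium, was at 33.1 ± 10.0 and 2.10 ± 0.751 FPKM (log2 change 3.44, limma adjusted p = 3.44e-05). Neither overlapped between groups, and both were called in all 21 alternatives.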
